A study of Mus musculus with 6 samples.

Results

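The 10 genes described here belong to Toll-like receptor (TLR) and danger signalling and were taken by gene symbol from the 25330 genes of the deposited tables. They are the receptors Tlr2, Tlr3, Tlr4 and Il1r1, the adaptors Myd88 and Ticam1, the kinases Irak1 and Irak2, and the danger signals Hmgb1 and Il33. All 10 were in the tables, and 9 of them were among the 14020 genes with enough counts for a test, the exception being Tlr2. The RNA-seq libraries were made from AML12 cells, a mouse hepatocyte line of wild-type genotype per the labels, originally established from mice carrying a transforming growth factor alpha transgene. Of the 6 libraries, 3 came from control cells kept in 21% oxygen and 3 from cells held in 1% oxygen for 6 h and reoxygenated for 2 h (H/R, labelled H6R2). The H/R cells were also in medium without serum and glucose during the low-oxygen step, whereas the growth medium held 10% serum, insulin, transferrin and selenium supplement and dexamethasone, so that oxygen and medium cannot be told apart. Whether replicates came from separate cultures is not given in the labels, and the p-values measure the spread between these libraries.

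TLRs are membrane receptors that recognise microbial products and molecules released by injured cells. TLR2 and TLR4 act at the cell surface and TLR3 recognises double-stranded RNA in endosomes. MyD88 carries the signal of nearly all TLRs and of the IL-1 receptor family through the IRAK kinases to NF-kB, whereas TRIF, the product of Ticam1, is the adaptor of TLR3 and the second adaptor of TLR4. HMGB1, a nuclear chromatin protein, and IL-33, a nuclear cytokine of the IL-1 family, are released by damaged cells as danger signals. In liver ischemia-reperfusion, hepatocytes are known both as a source of HMGB1 and as cells that respond to it, and the comparison of H/R with control asks how the transcripts of these components stood in cultured hepatocytes.

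The libraries held from 20438746 to 21854790 counts. Control replicate 1 stood apart in that 59 genes had at least 10 counts there and at most 2 in every other library, against 0 to 2 such genes in each of the other libraries. Serpina1a, a plasma protease inhibitor made by liver, had 61 counts there and at most 1 elsewhere. Of 11 hepatocyte markers, the keratins Krt8 and Krt18 and the liver transcription factor Hnf4a were abundant, with mean RPKM of 1394, 1123 and 29.6 in control cells, whereas Tat and Asgr1 had at most 2 counts in any library and Cps1 had 18 counts in control replicate 1 and 0 elsewhere. The summed level of the 11 markers, 2468 to 2677 RPKM in control libraries, rested mostly on the 2 keratins. Of the 7 hepatocyte markers tested, Krt8 and Krt18 rose and 5 fell after H/R, among them Alb, which encodes albumin (log2 fold change -2.85), Ttr (-3.07), Apob (-1.04), Apoa1 (-0.99) and Hnf4a (-0.41). The median of these 7 was -0.99. Among all tested genes 31.0% were higher and 31.8% lower. With 1 library left out in turn, 2 of the 7 rose and 3 to 5 fell. In the fit without control replicate 1, 4 fell, 2 of them by at least 2-fold in place of 3, and the median was -0.85. Without control replicate 1, 8 of the 10 genes again passed the test, 4 in each direction. Of 12 Kupffer cell and macrophage markers, 9 were analysed, and the defining genes Ptprc, Adgre1 and Clec4f had at most 3 counts in any library. Of 7 endothelial markers 6, and of 7 stellate cell markers 4, had at most 3 counts in every library. In contrast 3 of the 4 analysed cholangiocyte markers (Krt7, Krt19 and Sox9) were tested and all rose after H/R, against 31.0% of all tested genes. The summed level of the cholangiocyte markers was 534 to 609 RPKM in control and 1009 to 1061 in H/R libraries.

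RPKM, the count scaled by gene length and library total, separated the danger signals and signalling proteins from the receptors. In control cells Hmgb1 had the highest level (316 ± 9.36, SD, n = 3) and exceeded 99.3% of all listed genes. It was followed by Irak1 (12.5 ± 0.848), Myd88 (4.87 ± 0.241), Il33 (3.33 ± 0.188), Irak2 (1.75 ± 0.155) and Ticam1 (1.41 ± 0.103). The 4 receptors were all under 1 RPKM, with Tlr4 at 0.456 ± 0.0842, Tlr3 at 0.389 ± 0.0482, Tlr2 at 0.124 ± 0.0412 and Il1r1 at 0.0586 ± 0.0211. Neighbours in this order had ranges that did not overlap, except Tlr4 and Tlr3. After H/R, Hmgb1 (200 ± 8.42), Irak1 (11.8 ± 0.248) and Myd88 (3.77 ± 0.201) kept the highest places, and Irak2 (3.15 ± 0.132) and Ticam1 (2.40 ± 0.211) stood above Il33 (1.48 ± 0.0808). Tlr4 (0.658 ± 0.188) was then the highest receptor, and Tlr2, Tlr3 and Il1r1 lay between 0.150 and 0.173 with overlapping ranges of neighbours.

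**Figure D1:**
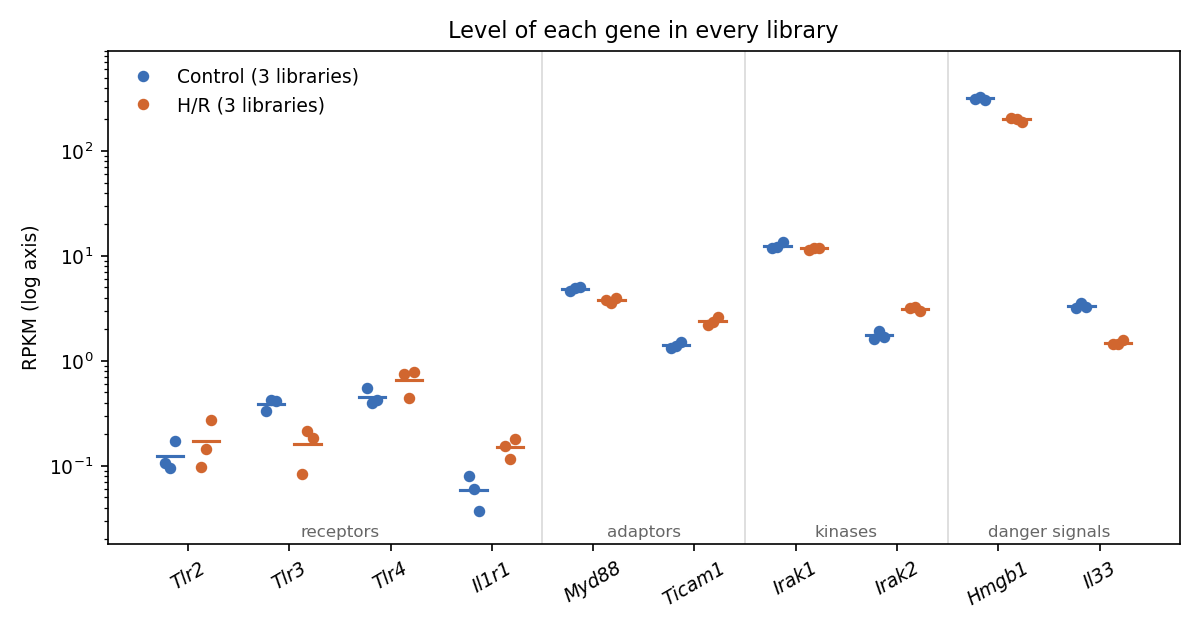
RPKM of the 10 genes in every library on a log axis, ordered by role, with control libraries in blue, H/R libraries in orange and a bar at each group mean. The 4 receptors sit under 1 RPKM in every library, Hmgb1 lies between 190.6 and 326, and the groups lie apart for Il1r1, Tlr3, Myd88, Ticam1, Irak2, Hmgb1 and Il33.

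Of the 9 genes tested, 8 had an adjusted p under 0.05 (quasi-likelihood test in edgeR, adjusted by Benjamini and Hochberg over 14020 genes), 4 higher and 4 lower after H/R. Among all tested genes 62.8% passed this threshold, 31.0% higher and 31.8% lower, so that a call by itself sets these genes little apart from the rest. Il1r1, Irak2, Ticam1 and Tlr4 rose, and Tlr3, Il33, Hmgb1 and Myd88 fell. A change of at least 2-fold was also reached by 3 genes, Il1r1 upward and Tlr3 and Il33 downward, against 8.52% of all genes (4.25% upward and 4.27% downward). Il1r1 entered the test through its H/R libraries, where it was higher. With at least 10 counts asked of each library, 7 genes were tested and 1 passed both thresholds, downward. The 3 H/R libraries lay entirely on one side of the 3 control libraries in 7 of the 9 genes, against 65.9% of all tested genes. The median log2 fold change was 0.02 over the 9 genes and -0.01 over all genes. Scaled by library totals alone, without TMM factors, all genes had a median of -0.12, and the directions of the 8 genes held. RPKM too is scaled by library totals. Unless another test is named, log2 fold changes given beside RPKM are of TMM-scaled counts and are not ratios of the RPKM means. In bulk RNA, fewer cells expressing a gene and less RNA per cell cannot be told apart.

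**Figure D2:**
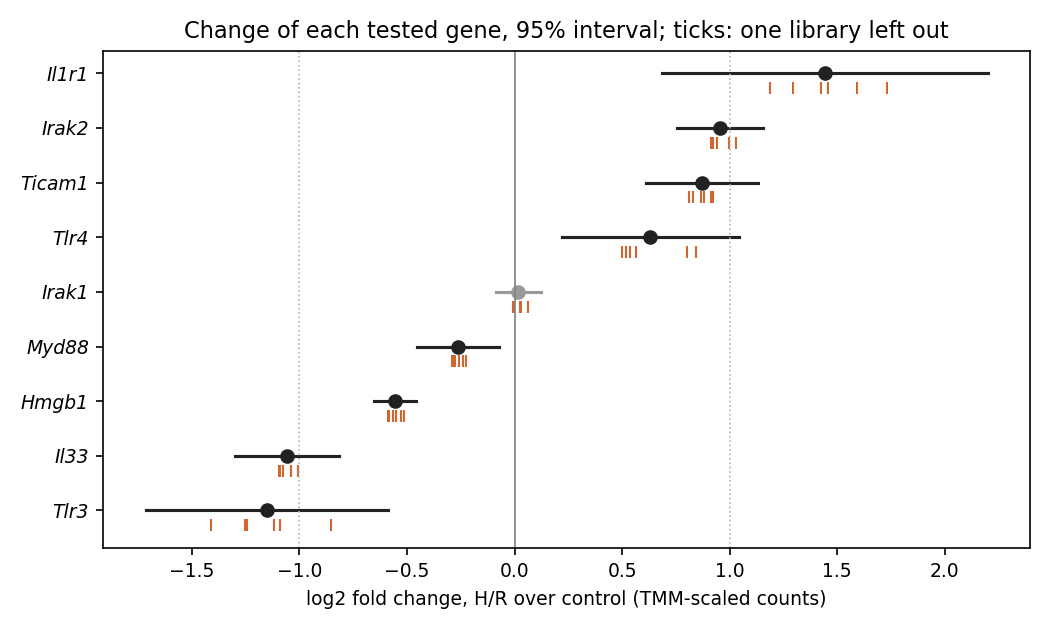
Log2 fold change of H/R over control for the 9 tested genes, as points with 95% intervals, black where the adjusted p was under 0.05 and grey for Irak1, with orange ticks for the values when each library was left out in turn. Il1r1 at 1.44 and Tlr3 at -1.15 mark the ends, and the interval of Irak1 runs from -0.09 to 0.12.

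To set the start regions of genes that moved in opposite directions side by side, sequence before the annotated transcription start is given for a pair that rose (Irak2, Ticam1) and a pair that fell (Myd88, Il33). The windows are those of RefSeq on GRCm38.p6, in which 9 of the 10 genes were matched and which were searched over 250 bases before each start. Bases inside an exon of the deposited tables were left out, which shortened Ticam1 to 231 and Myd88 to 227 bases. The Myd88 window precedes the RefSeq start but lies inside the span of Myd88 in the tables, which begins further upstream. Sequences run 5′ to 3′ on the strand of the gene, and capitals mark matches to the motifs named after them.
Irak2, chr6:113638217-113638466, plus strand: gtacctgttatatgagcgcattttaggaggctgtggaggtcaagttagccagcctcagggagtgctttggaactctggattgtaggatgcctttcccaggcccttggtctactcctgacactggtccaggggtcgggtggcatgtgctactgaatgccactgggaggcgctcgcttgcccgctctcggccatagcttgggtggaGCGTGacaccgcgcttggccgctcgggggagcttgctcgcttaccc
Ticam1, chr17:56276787-56277017, minus strand: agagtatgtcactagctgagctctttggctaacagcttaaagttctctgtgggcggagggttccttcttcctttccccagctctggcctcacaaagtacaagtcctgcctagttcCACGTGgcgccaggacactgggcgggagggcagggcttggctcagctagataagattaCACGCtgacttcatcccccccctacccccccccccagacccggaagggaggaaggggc
Myd88, chr9:119340042-119340268, minus strand: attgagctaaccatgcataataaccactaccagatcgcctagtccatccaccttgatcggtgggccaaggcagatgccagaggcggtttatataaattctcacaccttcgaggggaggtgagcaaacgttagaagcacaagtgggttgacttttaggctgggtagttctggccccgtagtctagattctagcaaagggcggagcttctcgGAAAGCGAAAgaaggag
Il33, chr19:29924863-29925112, plus strand, the upstream of 2 annotated starts: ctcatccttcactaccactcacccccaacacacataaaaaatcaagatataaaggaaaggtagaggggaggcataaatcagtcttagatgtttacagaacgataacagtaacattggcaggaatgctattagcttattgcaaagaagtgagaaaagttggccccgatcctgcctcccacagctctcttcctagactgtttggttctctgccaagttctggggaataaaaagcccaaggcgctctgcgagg
The motifs searched on both strands were the hypoxia-inducible factor cores ACGTG and GCGTG, the AP-1 site TGANTCA, the interferon response core, the cAMP response core TGACG and the NF-kB consensus. Irak2 held 1 GCGTG, 46 bases before the start, a motif found in 28.3% of all such windows. Ticam1 held CACGTG, which reads ACGTG on both strands (16.7% of windows), and 1 GCGTG on the opposite strand. Myd88 held 1 interferon response core, 40 bases before the start, which 2.98% of windows hold. Neither start region of Il33 held any of these motifs. Of the other genes, Hmgb1, which fell, held ACGTG before both of its starts and GCGTG before the second, and Il1r1, which rose, held ACGTG before the first start and GCGTG before the second. The NF-kB consensus, present in 7.28% of windows, was found for Tlr2, Tlr3, Irak1 and the second start of Il1r1, that is, in genes that rose, fell and did not pass the test. These matches describe letters in a window and no binding was measured.

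Positions are those of the deposited tables, on GRCm38. Among the receptors, Tlr3 (chromosome 8, 45395665 to 45411080, minus strand) had 38, 46 and 46 counts in the control libraries and 9, 23 and 21 after H/R. All H/R libraries were lower than all control libraries. The log2 fold change was -1.15 (SE 0.28, adjusted p = 0.000512, edgeR). Over 7.32% of its exon length Tlr3 shares sequence with Gm45542 on the other strand, which had a mean of 2.33 counts in control and 1.33 in H/R libraries.

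Tlr4 (chromosome 4, 66827584 to 66930284, plus strand), the receptor of lipopolysaccharide and of several danger signals, had 67, 46 and 50 counts in control libraries and 86, 50 and 94 after H/R. H/R replicate 2 lay within the control range, so the groups overlapped. The log2 fold change was 0.63 (SE 0.20, adjusted p = 0.00726), and without H/R replicate 3 it was 0.50 with an adjusted p of 0.0599. On log2(RPKM + 0.1), tested with limma, the adjusted p was 0.13, so the rise of Tlr4 depended on the test.

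Il1r1 (chromosome 1, 40225080 to 40317257, plus strand), the signalling receptor of IL-1, had 11, 8 and 5 counts in control libraries and 20, 15 and 25 after H/R, without overlap. Its log2 fold change was 1.44 (SE 0.37, adjusted p = 0.00107), the largest of the 9, but at a mean RPKM of 0.150 after H/R it remained among the least abundant. The gene entered the test because its 3 H/R libraries were above the filter on low counts. Tlr2 (chromosome 3, 83836272 to 83841767, minus strand), the partner of TLR1 and TLR6, had 7, 6 and 11 counts in control and 6, 9 and 18 in H/R libraries, with overlapping groups. Under the filter it was not tested with all 6 libraries. Without a filter the log2 fold change was 0.58 (SE 0.48, adjusted p = 0.401 in edgeR), DESeq2 gave 0.60 (adjusted p = 0.498), and in the 4 fits with 1 library left out in which it passed the filter the values ran from 0.43 to 0.86 (adjusted p from 0.119 to 0.463). No change was detectable at this depth.

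Other receptors were sparse. Of 9 further TLRs, 5 were analysed and none was tested, with at most 14 counts (Tlr5) in any library. The partners of TLR2 were at or near 0, Tlr1 with 0 to 3 counts and Tlr6 with 0 to 5. Without a filter on low counts, 1 of the 5 passed edgeR's test and by DESeq2 0 did. Tlr6, which had 0, 0 and 2 counts in control and 5, 4 and 4 in H/R libraries, was singled out after its values were seen. Among receptors of the IL-1 family, Il1rap, the accessory chain that IL1R1 and the IL-33 receptor need for signalling, had 1 count in control replicate 1 and 0 in every other library. Il1rl1, the IL-33 receptor, had 9 to 17 counts in control and 6 to 7 in H/R libraries and was not tested. None of the 2 tested genes of that list, Il18rap and Sigirr, passed edgeR's test (1 at an unadjusted p under 0.05, 0 by DESeq2). This depended on the processing. With upper quartile scaling, library totals alone or either limma fit, 1 of the 2 was lower. With 1 library left out, 0 to 2 of the 2 or 3 genes then tested were lower.

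The co-receptors of TLR4 were more abundant than the receptor. Cd14, which passes lipopolysaccharide to TLR4, had 849, 735 and 754 counts in control and 371, 436 and 424 in H/R libraries. Its level fell from 23.1 ± 1.36 to 12.5 ± 1.04 RPKM (log2 fold change on TMM-scaled counts -0.79, SE 0.07, adjusted p = 5.80e-12). Lbp, the lipopolysaccharide-binding protein, rose from 17.0 ± 2.10 to 28.2 ± 1.06 RPKM (log2 fold change 0.83, adjusted p = 4.31e-11). Ly96, which encodes the TLR4 partner MD-2, had 1.54 ± 0.339 and 2.01 ± 0.330 RPKM and did not pass (log2 fold change 0.49, adjusted p = 0.0604). The RPKM of Tlr4 relative to Cd14 was 0.0196 ± 0.00242 in control and 0.0536 ± 0.0184 in H/R libraries. Of 10 co-receptors and trafficking chaperones, 8 were analysed and 5 tested, with Lbp and Hsp90b1 higher and Cd14 and Cnpy3 lower, 4 of 5 against 62.8% of all genes. Because macrophages also express Cd14 and the TLRs, their markers were read beside these values. Of the 12 Kupffer cell and macrophage markers, 2 were tested and both were higher after H/R, against 31.0% of all genes. These were Cd68 with a log2 fold change of 2.77 and Csf1r with 0.63. Over 17.8% of its exon length Csf1r overlaps Hmgxb3, whose mean count was 733.7 in control and 1055 in H/R libraries. The summed level of the list was 1.27 to 1.503 RPKM in control and 5.08 to 5.90 in H/R libraries, but this sum rests on few genes. Of its 9 analysed genes 6 were at 3 counts or fewer in every library, among them the defining genes Ptprc, Adgre1 and Clec4f. The part of such cells in the values of Cd14 and the receptors was not tested.

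The adaptors moved in opposite directions. Ticam1 (chromosome 17, 56269319 to 56276786, minus strand) had 86, 88 and 97 counts in control and 136, 144 and 171 in H/R libraries, without overlap. Normalised counts were 86.2 ± 4.95 and 158 ± 12.4 (SD, n = 3), a log2 fold change of 0.87 (SE 0.13, adjusted p = 3.96e-07). Myd88 (chromosome 9, 119335934 to 119341411, minus strand) had 260, 265 and 280 counts in control and 202, 187 and 221 in H/R libraries, also without overlap. The decrease was small, with a log2 fold change of -0.26 (SE 0.09, adjusted p = 0.0152). It was lost without H/R replicate 2 (adjusted p = 0.0671) and by DESeq2 (0.109), and 11.3% of the exon length of Myd88 lies opposite exons of Acaa1a, which had a mean of 616 counts in control and 599.7 in H/R libraries. A ratio within a library is free of scaling between libraries. The RPKM of Ticam1 relative to Myd88 was 0.285, 0.286 and 0.298 in control and 0.580, 0.663 and 0.666 in H/R libraries. This was a shift of 1.13 on the log2 scale (SE 0.07, two-sided exact permutation p = 0.1, which is the minimum for 3 against 3, adjusted p = 0.12 over the 6 ratios computed). Tirap, which bridges MyD88 to TLR2 and TLR4, fell with a log2 fold change of -0.36 (adjusted p = 0.000166), and 9.05% of its exon length overlaps RP23-54G12.8.

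The IRAK kinases were unequal in their change. Irak2 (chromosome 6, 113638467 to 113695026, plus strand) had 156, 178 and 160 counts in control and 288, 294 and 288 in H/R libraries, without overlap. Its normalised counts were 157 ± 14.2 and 305 ± 15.3, a log2 fold change of 0.95 (SE 0.10, adjusted p = 2.40e-10). Irak1 (chromosome X, 74013914 to 74023918, minus strand), the more abundant kinase, had 1233, 1198 and 1356 counts in control and 1113, 1155 and 1213 in H/R libraries, and the groups overlapped. Its log2 fold change was 0.02 (95% interval -0.09 to 0.12, adjusted p = 0.789) and turned to -0.09 on scaling by library totals alone. The RPKM of Irak2 relative to Irak1 was 0.135, 0.159 and 0.126 in control and 0.277, 0.272 and 0.254 in H/R libraries, a shift of 0.94 on the log2 scale (SE 0.11, the same exact permutation p = 0.1). Irak4, the kinase that acts first after MyD88, fell from 19.7 ± 0.419 to 9.94 ± 0.539 RPKM (log2 fold change on TMM-scaled counts -0.88, adjusted p = 5.59e-17). Over 7.87% of its exon length Irak4 lies opposite Twf1, whose mean count was 3398 in control and 1813 in H/R libraries. Irak3, the inhibitory member of the family, rose with a log2 fold change of 0.41 (adjusted p = 0.00147).

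**Figure D3:**
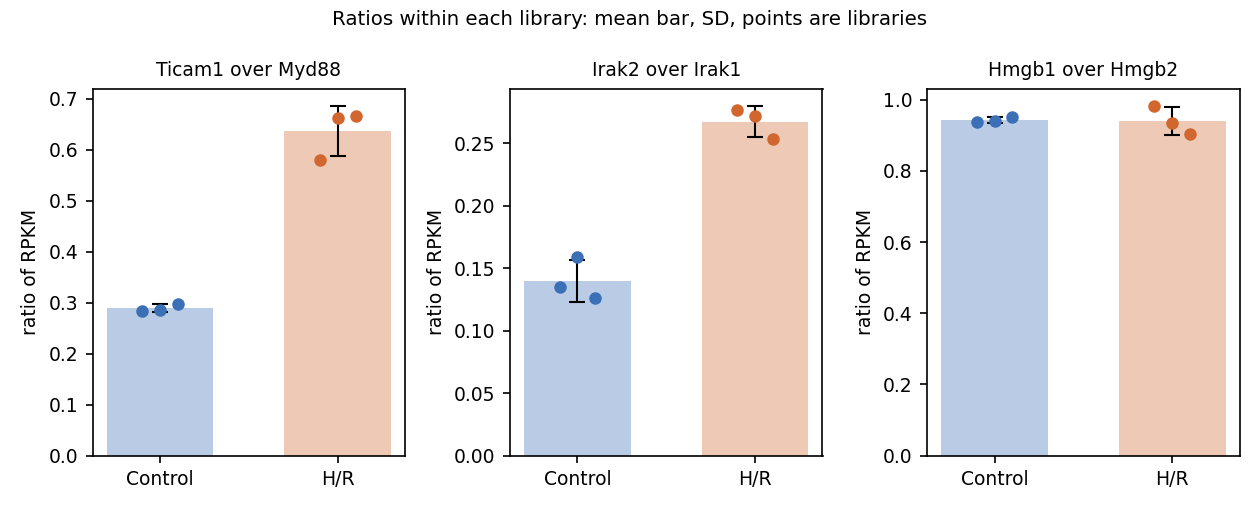
RPKM ratios within each library for Ticam1 over Myd88, Irak2 over Irak1 and Hmgb1 over Hmgb2, with bars at the group mean, SD as error bars and points for the 3 libraries of each group on axes that start at 0. The means were 0.290 and 0.636 for the adaptors, 0.140 and 0.267 for the kinases, and 0.943 and 0.940 for the chromatin proteins, in control and H/R libraries.

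Downstream of the receptors the directions were mixed. Of 26 listed adaptors, ubiquitin ligases, kinases and interferon regulatory factors, 25 were analysed and 21 tested, with 7 higher and 8 lower (15 at an adjusted p under 0.05 against the 62.8% of all genes). Ticam2, a further TLR4 adaptor, had no entry and so no values here. Traf6, the ubiquitin ligase that receives the signal from the IRAK kinases, rose with a log2 fold change of 0.42 (adjusted p = 0.000143), as did Tab2 (0.62) and Tab3 (0.68), the ubiquitin-binding subunits of the TAK1 complex, and Peli1 (0.79), an IRAK-binding ubiquitin ligase. Map3k7, which encodes TAK1 itself, did not pass edgeR's test (-0.35, adjusted p = 0.0598). Ikbkg, the regulatory subunit of the IkB kinase, fell with -0.63, and 5.15% of its exon length overlaps G6pdx. Also among the genes that fell were Ikbke (-0.48), Irf3 (-0.32) and Ube2n (-0.27), besides Tirap and Irak4. The median log2 fold change of the list was -0.03.

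Of the danger signals, Hmgb1 (chromosome 5, 149046702 to 149184489, minus strand) had 34358, 34454 and 32996 counts in control and 21365, 20666 and 20816 in H/R libraries, without overlap. Its level fell from 316 ± 9.36 to 200 ± 8.42 RPKM. On TMM-scaled counts the log2 fold change was -0.56 (SE 0.05, adjusted p = 2.68e-12), and on library totals alone it was -0.66. Reads of the 9 processed copies of Hmgb1 in the tables may not be separable from it. Their counts together made up 1.86% to 2.44% of those of Hmgb1, and the ratio for the sum was again -0.56 on the log2 scale. A sum so close to Hmgb1 alone could hardly give another ratio, so it does not show how shared reads were counted. Hmgb2, its closest relative, fell by 0.55 on the log2 scale (adjusted p = 1.12e-12), and the RPKM of Hmgb1 relative to Hmgb2 was 0.943 ± 0.00773 in control and 0.940 ± 0.0386 in H/R libraries, a difference of -0.01 on the log2 scale (SE 0.03). Hmgb3 fell further, from 239 ± 15.7 to 102 ± 1.27 RPKM (log2 fold change -1.12, adjusted p = 1.12e-19). Ager, which encodes the HMGB1 receptor RAGE, had 0 to 3 counts in control and 5 to 8 in H/R libraries and was not tested.

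Il33 (chromosome 19, 29925114 to 29960718, plus strand) had 202, 215 and 199 counts in control and 85, 85 and 99 in H/R libraries, the groups lying well apart. Normalised counts were 196 ± 11.9 and 94.1 ± 4.23, a log2 fold change of -1.06 (SE 0.12, adjusted p = 1.49e-09), and no exon of Il33 is shared with another gene. With each library left out in turn it stayed between -1.09 and -1.01. Other IL-1 family ligands were low. Il1a had 0 to 5 counts and Il1b 0 to 1 in any library, and Il1rn, the IL-1 receptor antagonist, had 1.63 ± 0.222 and 1.69 ± 0.0406 RPKM (log2 fold change 0.16, 95% interval -0.06 to 0.38). Of 12 listed ligands and antagonists, 5 were analysed and 2 tested, of which edgeR's test called 0 (0 at an unadjusted p under 0.05, 0 by DESeq2).

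Of 28 other danger signals and their receptors, 27 were analysed and 15 tested, with 5 higher and 6 lower, against 31.0% and 31.8% of all genes. Hspa1a, which entered the test through the H/R libraries, rose from 5 counts in each control library to 328 to 428 counts in the H/R libraries, with the reservation that Hspa1b is a near-identical copy. Of genes of the inflammasome route by which IL-1 family cytokines are processed and released, Casp1, the protease, fell from 5.14 ± 0.165 to 2.28 ± 0.763 RPKM (log2 fold change -1.06, adjusted p = 4.09e-06). Panx1, a membrane channel, fell with -1.24 (adjusted p = 0.00225), whereas Pycard and Nlrp3 had at most 1 and 6 counts in any library. In the whole list 3 genes passed both thresholds downward. This number was 2 with at least 10 counts asked of each library, and 2 without H/R replicate 1 or without H/R replicate 2.

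Genes that restrain TLR signalling were higher more often than lower, in a list chosen with earlier results of these data known. Of 16 listed, all were tested, 13 rose and 1 fell, against 31.0% and 31.8% of all genes, and the median log2 fold change was 0.48 against -0.01. On scaling by library totals alone, 12 rose and 1 fell. Atf3, a transcription factor that represses TLR-induced cytokine genes, rose from 284 ± 32.1 to 3364 ± 92.5 normalised counts, and Dusp1, a MAP kinase phosphatase, from 418 ± 51.7 to 1113 ± 30.8. The ubiquitin-system inhibitors Tnip1 (0.71), Cyld (0.68), Otud7b (0.62) and Tnfaip3 (0.51) and the adaptor Tollip (0.57) rose less on the log2 scale. Zc3h12a, which encodes the RNase Regnase-1, fell with -0.56 (adjusted p = 0.00284).

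Genes known to be switched on by TLR and IL-1 receptor signalling were then counted, many of which other pathways also induce. This list too was chosen with earlier results of these data known. Of 23 listed, 22 were analysed and 16 tested. In all, 13 rose and 2 fell, against 31.0% and 31.8% of all genes, and 8 rose by at least 2-fold against 4.25%. Of the tested genes, the chemokine genes Cxcl2, Cxcl10 and Ccl20 had at most 10 counts in any control library and entered the test through the H/R libraries. With at least 10 counts asked of each library, 13 genes were tested, of which 10 rose, 5 of them by at least 2-fold, and 2 fell. Under that filter 4131 of all 13086 tested genes were higher and 4335 lower. The median log2 fold change of the list was then 0.41 in place of 0.88. Ccl2, a monocyte chemokine, rose from 53.3 ± 3.04 to 220 ± 19.3 RPKM. Icam1, an adhesion molecule of which 11.7% of the exon length overlaps another annotated gene, rose from 0.258 ± 0.0408 to 2.20 ± 0.269 RPKM, and Ptgs2, the inducible cyclooxygenase, from 0.465 ± 0.0795 to 3.78 ± 0.304. In contrast Cxcl5, a neutrophil chemokine, fell from 25.01 ± 1.65 to 4.13 ± 0.205 RPKM (log2 fold change -2.49, adjusted p = 1.15e-24), and Tnf, Il6 and Ccl5 had at most 2 counts in any library.

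**Figure D4:**
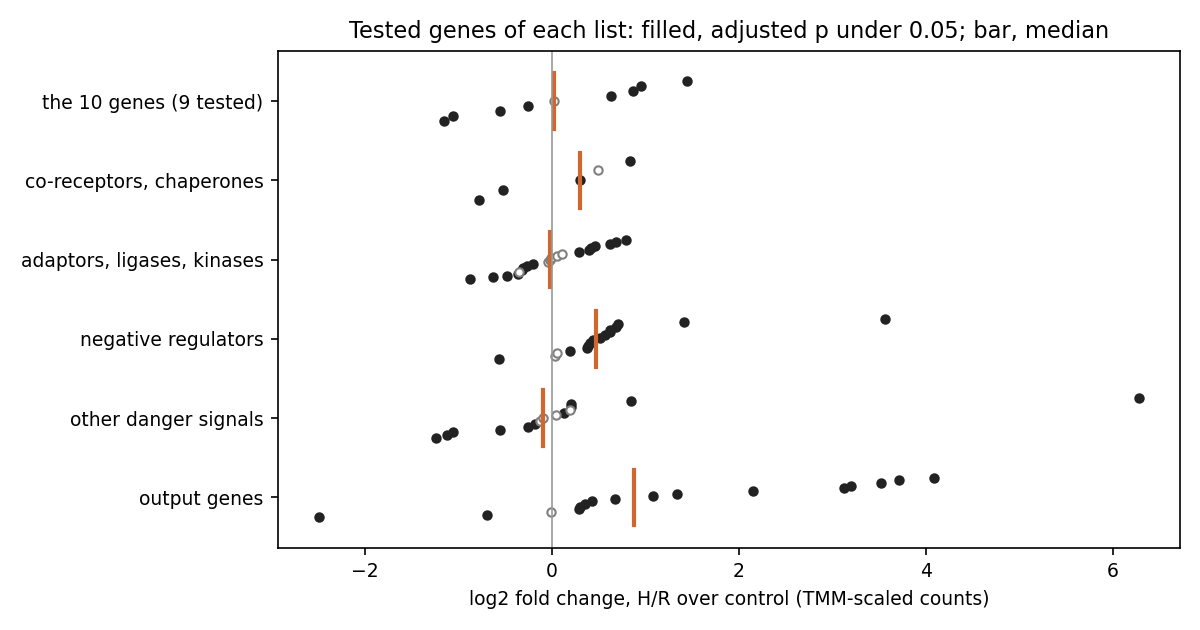
Log2 fold change of H/R over control for every tested gene of 6 lists, filled where the adjusted p was under 0.05 and open otherwise, with an orange bar at the median of each list. The medians were 0.02 for the 9 tested genes, 0.30 for co-receptors, -0.03 for adaptors, ligases and kinases, 0.48 for negative regulators, -0.10 for other danger signals and 0.88 for output genes, the last being 0.41 with at least 10 counts asked of each library.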

How the data were processed

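Stranded mRNA libraries of AML12 cells were sequenced with paired ends. Per the labels and the methods, reads were trimmed with Trimmomatic 0.36, aligned to GRCm38 (aligner named STRA, 2.5.3a, in the methods) and counted with featureCounts of Subread 1.5.1. The annotation release and the strand setting are not given in the sources used here, so genes that share exon positions have uncertain values. The deposited count of a gene is a raw whole number. The deposited RPKM equalled the value computed from count, gene length and library total (largest relative error 1.13e-06).

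Counts were analysed with R 4.3.3 and edgeR 4.0.16 (filterByExpr, TMM, robust glmQLFit and glmQLFTest, Benjamini-Hochberg adjustment over 14020 genes). The fit was also run on simulated data with a common dispersion for all genes and changes placed only in genes with more counts. That simulation does not speak for genes with few counts or for the spread of control replicate 1. The thresholds were an adjusted p of 0.05 and, from the methods, a fold change of 2. SEs were derived from the F statistic. Normalised counts are counts scaled to the mean effective library. Single values and ratios were compared by exact permutation tests (scipy 1.17.1). Alternatives were DESeq2 1.42.0, other scalings and filters, a replicate block, non-robust dispersions, limma 3.58.1 on log2(RPKM + 1) and log2(RPKM + 0.1), and leaving out each library. Named genes were the 10 genes, of each list at most 4 genes past both thresholds (mean count 10 or more), and the partners of the 10 genes. Other genes named as examples, and the ratios, were chosen after their values were seen. The genes and lists were chosen with earlier results of these data known.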

Additional observations from a re-analysis of the deposited data

How the results depend on the processing

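Of the 9 tested genes 8 passed the adjusted p threshold, and this count stayed between 6 and 8 in the alternatives, and it was 7 to 8 with 1 library left out. The number past both thresholds was 3. It was 1 under a minimum of 10 counts per library, where 7 genes could be tested, 0 with limma on log2(RPKM + 1), 1 with limma on log2(RPKM + 0.1) and 6 with a fold-change threshold of 1.5. With 1 library left out it was between 2 and 4, being 2 without H/R replicate 1, where Tlr3 had a log2 fold change of -0.85, and 4 without control replicate 2, where Irak2 had 1.03. The number of pathway genes called was 59 of 77 tested, against 62.8% of all genes, and stayed between 55 and 62. Irak1, which did not pass, changed sign, with log2 fold changes of -0.0532 (upper quartile factors), -0.0879 (totals alone), -0.0796 (limma, pseudocount 1) and -0.0854 (limma, pseudocount 0.1), and leaving out 1 library gave -0.00498 to 0.0617. The cause was not tested. No pairing of libraries by replicate number was detected (correlation of deviations -0.03, 0.00463 and -0.01), and no control library correlated best with the H/R library of its number. With 3 libraries a group, such values cannot show whether libraries were handled in pairs. With the replicate block the counts were again 8, 3 and 59. The depth limits Tlr2, Il1r1 and Tlr3, whose counts per library did not exceed 46.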
